A study of Mus musculus with 10 samples.

Results

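The integrated stress response and the unfolded protein response were examined through 10 genes, the transcription factor gene Atf4, 6 of its targets (Ddit3, Trib3, Chac1, Asns, Sesn2 and Ppp1r15a), and 3 genes of the endoplasmic reticulum (ER) branches (Hspa5, Xbp1 and Herpud1). They were chosen by name, with earlier results of these data known. All 10 had exactly 1 probe that the array annotation pairs with that symbol alone, out of 19938 genes measured in this way. The levels came from whole-transcript arrays of tumors that the mouse colon carcinoma line MC38 formed under the skin of C57BL/6 mice. In the CpG1826 group, 5 tumors of about 40 mm2 received 50 µg of CpG1826, an oligodeoxynucleotide that activates the DNA sensor TLR9, in 50 µL of PBS, and were frozen 6 h later. In the PBS group, 5 tumors received PBS. The label text gives the schedule for the CpG1826 injection only, so that of the PBS tumors was taken to be equal. The mouse numbers are 50, 58, 183, 189 and 595 for CpG1826 and 26, 29, 482, 592 and 661 for PBS, 1 array per mouse. All 10 tumors share the cell line and the mouse strain, and each array holds RNA of the whole tumor with the host cells in it, so a change in the number of cells of a type and a change in RNA per cell cannot be told apart.

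The integrated stress response starts when a kinase, PERK in ER stress, GCN2 in amino acid shortage, PKR with double-stranded RNA or HRI with haem shortage and mitochondrial stress, phosphorylates the initiation factor eIF2α. Most translation then falls while the Atf4 mRNA is translated better, and ATF4 switches on genes of amino acid supply, redox balance and cell death. The unfolded protein response adds the sensors IRE1, which splices the Xbp1 mRNA, and ATF6, and these raise ER chaperones such as BiP and parts of the degradation machinery. PERK belongs to both responses, so genes of the ATF4 arm can move with or without the ER chaperones. The arrays measure mRNA and give neither eIF2α phosphorylation nor ATF4 protein, and 1 value per gene does not separate spliced from unspliced Xbp1.

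Promoter windows of all 10 genes were taken from RefSeq (build GRCm38.p6, 250 bases before to 50 bases after the transcription start). They were searched on both strands for 3 motifs, to describe the DNA letters next to the start. TGATGNAA is the core of the element bound by ATF4 with C/EBP proteins. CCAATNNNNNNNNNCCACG is the ER stress response element bound by NF-Y with ATF6, and ATTGGNCCACG is its second form. The 5 windows with a match are shown 5′ to 3′ in the direction of the gene, with the match in capitals.
Trib3, chr2:152344011-152344310, minus strand: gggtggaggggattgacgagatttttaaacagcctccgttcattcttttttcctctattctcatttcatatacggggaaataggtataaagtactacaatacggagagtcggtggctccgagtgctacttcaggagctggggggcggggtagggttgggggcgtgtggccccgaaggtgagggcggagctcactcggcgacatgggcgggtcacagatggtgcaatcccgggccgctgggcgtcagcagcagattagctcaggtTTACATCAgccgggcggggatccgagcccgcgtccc
Chac1, chr2:119350992-119351291, plus strand: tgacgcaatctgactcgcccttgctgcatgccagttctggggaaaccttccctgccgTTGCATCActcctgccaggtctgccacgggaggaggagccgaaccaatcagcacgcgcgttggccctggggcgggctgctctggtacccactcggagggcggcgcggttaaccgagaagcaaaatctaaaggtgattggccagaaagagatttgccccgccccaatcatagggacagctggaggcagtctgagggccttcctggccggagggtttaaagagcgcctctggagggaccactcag
Asns, chr6:7693160-7693459, minus strand: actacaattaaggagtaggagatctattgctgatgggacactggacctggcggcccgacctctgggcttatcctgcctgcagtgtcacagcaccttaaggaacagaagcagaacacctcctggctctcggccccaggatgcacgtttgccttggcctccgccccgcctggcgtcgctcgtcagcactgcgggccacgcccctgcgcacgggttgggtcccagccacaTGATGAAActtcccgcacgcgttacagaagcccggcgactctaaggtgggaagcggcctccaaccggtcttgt
Hspa5, chr2:34771840-34772139, plus strand: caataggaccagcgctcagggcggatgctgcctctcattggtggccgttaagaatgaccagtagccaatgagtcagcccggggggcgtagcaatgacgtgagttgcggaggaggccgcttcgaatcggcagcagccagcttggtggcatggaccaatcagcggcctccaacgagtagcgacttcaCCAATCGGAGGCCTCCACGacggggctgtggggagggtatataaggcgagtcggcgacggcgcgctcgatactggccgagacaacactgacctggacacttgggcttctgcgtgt
Herpud1, chr8:94386179-94386478, plus strand: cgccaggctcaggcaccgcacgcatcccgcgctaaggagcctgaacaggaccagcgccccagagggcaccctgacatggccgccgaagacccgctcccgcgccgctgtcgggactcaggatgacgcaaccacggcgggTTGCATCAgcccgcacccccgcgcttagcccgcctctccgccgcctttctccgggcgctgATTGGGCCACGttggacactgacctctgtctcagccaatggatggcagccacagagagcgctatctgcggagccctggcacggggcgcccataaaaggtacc

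TGATGNAA was found at bases 15 to 22 after the start of Trib3, at -193 to -186 in Chac1, at -23 to -16 in Asns and at -112 to -105 in Herpud1. It occurs in 3.97% of all 32851 promoter windows in the table. The ER stress response element lay at -65 to -47 in Hspa5, against 0.119% of all windows, and its second form at -52 to -42 in Herpud1, against 0.0365%. The motifs did not overlap one another in these windows. Herpud1 thus held letters of both kinds, an ER stress element and the ATF4 core. The windows of Atf4, Ddit3, Sesn2, Ppp1r15a and Xbp1 held none of the 3 motifs, which says only that these letters are not within the 300 bases. A match is a description of sequence and not a binding site.

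One PBS tumor stood apart. The tumor of PBS mouse 26 had the lowest value of all 10 tumors in 8 of the 10 genes, all but Atf4 and Hspa5, and its Hspa5 value was the highest. Its array had the highest median, 6.53 where the 10 arrays ran from 6.47 to 6.53 (log2), and its mean correlation with the other arrays across probes was 0.984, against 0.986 to 0.990 for the others. Values without this tumor are given for all 10 genes and for the further pathway genes named in which it lay far from its group or decided a call.

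Atf4 and 4 of its 6 targets rose in CpG1826 tumors, between 1.19-fold and 1.65-fold, and none of the 3 ER genes passed the test. With limma over all 19938 genes and Benjamini-Hochberg adjustment at 0.05, 5 of the 10 genes were higher and 0 lower, where 3.56% of all genes were higher and 1.10% lower. At an unadjusted p under 0.05, 7 genes were higher, the whole ATF4 arm, and 0 lower, where 8.13% of all genes were higher and 7.43% lower. The 5 called genes are also the 5 in which every CpG1826 value lay above every PBS value, a pattern seen in 4.35% of all genes. All 5 calls lay close to the threshold, at limma adjusted p = 0.0281 to 0.0440. In the limma fits that leave out 1 mouse, 0 members were called when CpG1826 mouse 50, 58 or 189 or PBS mouse 482 was missing and 1 when PBS mouse 29 was. With CpG1826 mouse 183 or PBS mouse 26 or 592 left out the count was 3, and with CpG1826 mouse 595 or PBS mouse 661 left out it was 4. Trib3 kept its call in 5 of the 10 fits, Ddit3 and Chac1 in 4 each, and Atf4 and Sesn2 in 2 each. The direction of the 7 genes of the ATF4 arm was the same in each of these 10 fits.

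**Figure D1:**
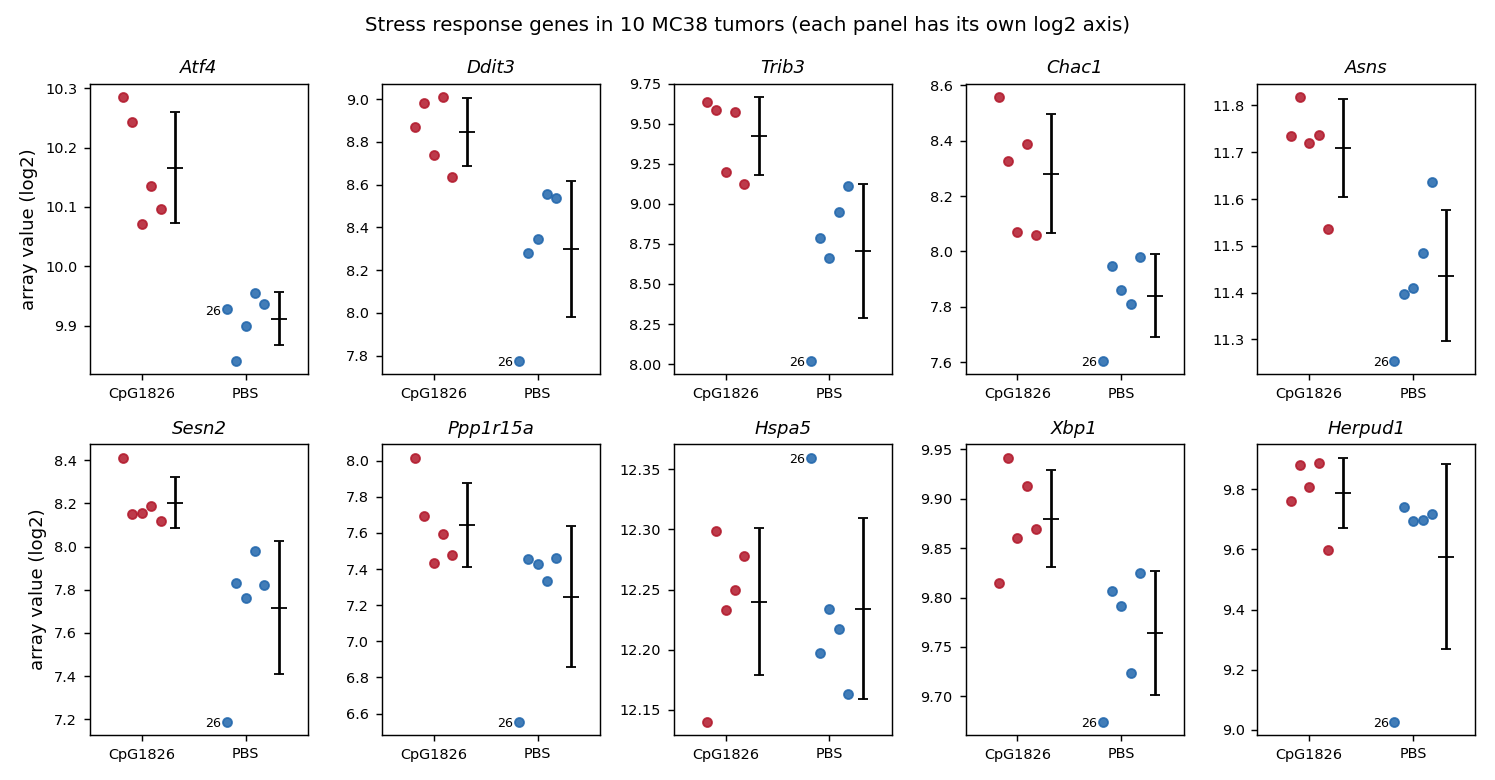
Array values (log2, each panel on its own axis) of the 10 genes, with 1 point per tumor, 5 CpG1826 tumors in red on the left and 5 PBS tumors in blue on the right, and the mean with SD as black bars; 26 marks the PBS tumor of that mouse. The groups do not overlap for Atf4, Ddit3, Trib3, Chac1 and Sesn2, and the marked tumor is the lowest in 8 panels and the highest in that of Hspa5.

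Atf4 (probe 10425364), the transcription factor at the centre of the response, had log2 values of 10.29, 10.24, 10.07, 10.14 and 10.10 in the CpG1826 tumors of mice 50, 58, 183, 189 and 595, against 9.93, 9.84, 9.90, 9.96 and 9.94 in the PBS tumors of mice 26, 29, 482, 592 and 661. The groups were separate, although the difference was small. Atf4 averaged 10.17 ± 0.09 in CpG1826 tumors and 9.91 ± 0.04 in PBS tumors (SD, n = 5 each), a rise of 0.25 ± 0.06 on the log2 scale (SE), or 1.19-fold (95% confidence interval 1.08 to 1.31, limma adjusted p = 0.0370). The PBS tumor of mouse 26 lay among the other PBS tumors here, unlike in most members. Without that mouse the log2 fold change was 0.26 (limma adjusted p = 0.0534).

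Trib3 (probe 10488608), a pseudokinase that is induced by ATF4 and dampens its output, changed most among the 10 genes. Its log2 values were 9.64, 9.59, 9.20, 9.58 and 9.13 in CpG1826 tumors, against 8.02, 8.79, 8.66, 8.95 and 9.11 in PBS tumors. The 3 tumors of CpG1826 mice 50, 58 and 189 lay close together at the top, and those of mice 183 and 595 just above the highest PBS tumor, that of mouse 661. The rise was 1.65-fold (1.26 to 2.15), 0.72 ± 0.18 on the log2 scale (SE, limma adjusted p = 0.0340). Without PBS mouse 26 it was 0.55 (limma adjusted p = 0.0389).

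Ddit3 (probe 10366881), which encodes CHOP, a transcription factor linked to cell death in prolonged stress, had log2 values of 8.87, 8.98, 8.74, 9.01 and 8.64 in CpG1826 tumors, against 7.78, 8.28, 8.35, 8.56 and 8.54 in PBS tumors. The lowest CpG1826 tumor, of mouse 595, exceeded the highest PBS tumor, of mouse 592, by 0.08. The mean rise was 1.46-fold, 0.55 ± 0.13 on the log2 scale (SE, 95% confidence interval 0.26 to 0.84, limma adjusted p = 0.0330), and 0.42 without PBS mouse 26 (limma adjusted p = 0.0329). Of all genes tested, Ddit3 was among the 3 whose deviations over the 10 tumors were most like those of Trib3, with a root mean square difference of 0.14 log2 units. The others were Bnip3, a mitochondrial receptor of mitophagy also known as a hypoxia-inducible gene, and Gpt2, a mitochondrial alanine transaminase listed here among the ATF4 targets. Deviations were taken from each gene's mean over all 10 tumors, so the measure includes the difference between the groups. PBS mouse 26 was the lowest tumor in Trib3, Ddit3, Bnip3 and Gpt2 and also enters it. Shared regulation of these genes was not tested.

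Chac1 (probe 10474972), a γ-glutamyl cyclotransferase that breaks down glutathione, had log2 values of 8.56, 8.33, 8.07, 8.39 and 8.06 in CpG1826 tumors, against 7.61, 7.95, 7.86, 7.81 and 7.98 in PBS tumors. The tumors of CpG1826 mice 183 and 595 were again the lowest of their group, and the lower of them exceeded the highest PBS tumor by 0.08. Chac1 rose 1.36-fold (1.16 to 1.59), 0.44 ± 0.10 on the log2 scale (SE, limma adjusted p = 0.0281), and without PBS mouse 26 the log2 fold change was 0.38 (limma adjusted p = 0.0710).

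Sesn2 (probe 10516932), a leucine-binding inhibitor of mTORC1 signalling, had log2 values of 8.41, 8.15, 8.15, 8.19 and 8.12 in CpG1826 tumors, against 7.19, 7.83, 7.76, 7.98 and 7.82 in PBS tumors. The CpG1826 tumor of mouse 50 stood above the other 4 of its group, and the PBS tumor of mouse 26 below the other 4 of its own. The rise was 1.40-fold (1.16 to 1.69), 0.49 ± 0.13 on the log2 scale (SE, limma adjusted p = 0.0440). Without PBS mouse 26 it was 0.35 (limma adjusted p = 0.0259). The call was lost when any 1 of the 5 CpG1826 mice or PBS mouse 29, 482 or 661 was left out, with a limma adjusted p of up to 0.111, and also after a further quantile normalization (limma adjusted p = 0.0513).

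The other members of the ATF4 arm did not pass. Asns (probe 10543067), asparagine synthetase, had log2 values of 11.73, 11.82, 11.72, 11.74 and 11.54 in CpG1826 tumors, against 11.25, 11.40, 11.41, 11.48 and 11.64 in PBS tumors. In 4 of 5 CpG1826 tumors Asns lay above every PBS tumor, and that of mouse 595 lay below PBS mouse 661. The log2 fold change was 0.27 ± 0.08 (SE, 95% confidence interval 0.10 to 0.45, limma adjusted p = 0.0832). It was 0.23 without PBS mouse 26 (limma adjusted p = 0.157), and it passed without PBS mouse 661 (0.32, limma adjusted p = 0.0387). Ppp1r15a (probe 10563338), which encodes GADD34, the stress-induced subunit of the phosphatase that removes phosphate from eIF2α, had log2 values of 8.02, 7.69, 7.44, 7.60 and 7.48 in CpG1826 tumors, against 6.55, 7.46, 7.43, 7.33 and 7.46 in PBS tumors. The groups overlapped, with the CpG1826 tumors of mice 183 and 595 at the level of the upper PBS tumors and the PBS tumor of mouse 26 far below. Its log2 fold change was 0.40 ± 0.17 (SE, 0.04 to 0.76, limma adjusted p = 0.259), and 0.22 without PBS mouse 26.

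The ER genes gave 0 calls in either direction with limma, also at an unadjusted p under 0.05. Hspa5 (probe 10471586), which encodes BiP, the main chaperone of the ER lumen and the sensor-binding protein of the unfolded protein response, had log2 values of 12.14, 12.30, 12.23, 12.25 and 12.28 in CpG1826 tumors, against 12.36, 12.20, 12.23, 12.22 and 12.16 in PBS tumors. All 10 tumors lay within 0.22 of one another and the groups overlapped. PBS mouse 26 had the highest value and CpG1826 mouse 50 the lowest. The log2 fold change was 0.01 ± 0.06 (SE), with a 95% confidence interval of -0.13 to 0.14, or 0.914-fold to 1.10-fold (limma adjusted p = 0.982), and the log2 fold change was 0.04 without PBS mouse 26. That interval lies below the estimates of the 7 genes of the ATF4 arm. It overlaps the intervals of Atf4, Asns and Ppp1r15a, which start at 0.12, 0.10 and 0.04 on the log2 scale. The interval of the ER gene Herpud1, -0.06 to 0.48, holds the estimates of Atf4, Asns, Ppp1r15a and Chac1.

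Xbp1 (probe 10374035), the transcription factor made from the IRE1-spliced mRNA, had log2 values of 9.81, 9.94, 9.86, 9.91 and 9.87 in CpG1826 tumors, against 9.67, 9.81, 9.79, 9.72 and 9.82 in PBS tumors. In 4 of 5 CpG1826 tumors it lay above every PBS tumor, but the difference was 0.12 ± 0.06 (SE, -0.01 to 0.24, limma adjusted p = 0.386), and 0.09 without PBS mouse 26. Herpud1 (probe 10574087), an ER membrane protein of ER-associated degradation, had log2 values of 9.76, 9.88, 9.81, 9.89 and 9.60 in CpG1826 tumors, against 9.03, 9.74, 9.69, 9.70 and 9.72 in PBS tumors. The PBS tumor of mouse 26 lay 0.67 below the next PBS tumor. The log2 fold change of 0.21 ± 0.13 (SE, -0.06 to 0.48, limma adjusted p = 0.473) was 0.07 without that mouse.

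**Figure D2:**
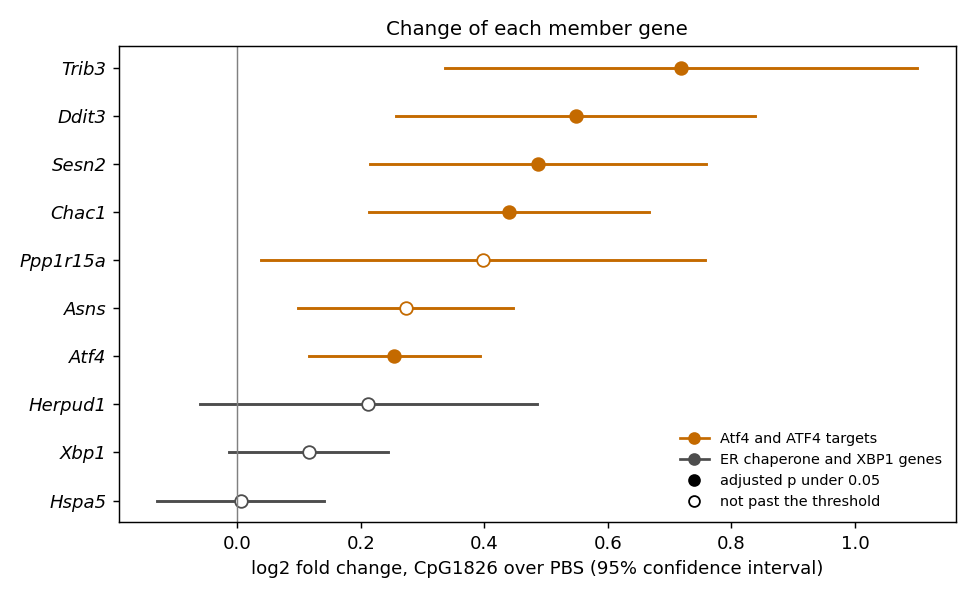
Log2 fold change, CpG1826 over PBS, of each gene with its 95% confidence interval (n = 5 tumors each), filled where the limma adjusted p was under 0.05; orange marks Atf4 and its targets and grey the ER genes. Trib3 has the largest change, 0.72, and Hspa5 the smallest, 0.01.

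Whether the ATF4 arm changed differently from BiP was tested per gene, as the difference between each gene and Hspa5 within a tumor, with an exact permutation test of the 10 tumors (two-sided, smallest possible p = 0.00794) and adjustment over the 9 pairs. Atf4, Ddit3, Trib3, Chac1, Asns and Sesn2 rose relative to Hspa5. For Atf4 and Sesn2 every CpG1826 tumor exceeded every PBS tumor in this difference, and they had excesses of 0.25 and 0.48 log2 units (exact p = 0.00794, adjusted p = 0.0286). For Trib3, Ddit3 and Chac1, 4 of 5 CpG1826 tumors did, with excesses of 0.71, 0.54 and 0.43 (exact p = 0.0159, adjusted p = 0.0286). Asns had an excess of 0.27 (4 of 5 tumors, exact permutation adjusted p = 0.0357). Ppp1r15a (0.39, 3 of 5 tumors) did not pass, nor did Xbp1 (0.11, 2 of 5) or Herpud1 (0.21, 4 of 5), with exact permutation adjusted p = 0.107, 0.107 and 0.310. The Atf4 and Sesn2 calls were lost without CpG1826 mouse 50, 58 or 189 or PBS mouse 26 or 29. The others were lost in these 5 fits and in 2 or 3 more: without CpG1826 mouse 183 and PBS mouse 482 for Ddit3 and Trib3, without PBS mice 482 and 592 for Chac1, and without all 3 for Asns, each left out alone. The highest adjusted p of these 6 genes over the fits was 0.0952. All 6 kept their calls without CpG1826 mouse 595 or PBS mouse 661, and without the last Ppp1r15a and Xbp1 passed as well (exact permutation adjusted p = 0.0446 and 0.0238). These differences all share the Hspa5 values and are not independent of one another. With Hspa5 itself at 0.01, they lie close to the limma log2 fold changes and are not separate evidence. Xbp1 and Herpud1 were not used as the reference, so a difference from these ER genes was not tested.

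The tumors of each group were not alike in the ATF4 arm. Averaged over its 7 genes, the deviation from the PBS mean was 0.62, 0.52, 0.32, 0.50 and 0.27 log2 units in the tumors of CpG1826 mice 50, 58, 183, 189 and 595. It was -0.40, 0.05, 0.03, 0.13 and 0.19 in those of PBS mice 26, 29, 482, 592 and 661. The lowest CpG1826 tumor thus stood 0.08 above the highest PBS tumor, while PBS mouse 26 lay 0.44 below the next. The same average over the 3 ER genes ran from 0.05 to 0.18 in CpG1826 tumors and from -0.17 to 0.06 in PBS tumors, where PBS mouse 26 was again the lowest and the other 4 lay between 0.02 and 0.06.

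**Figure D3:**
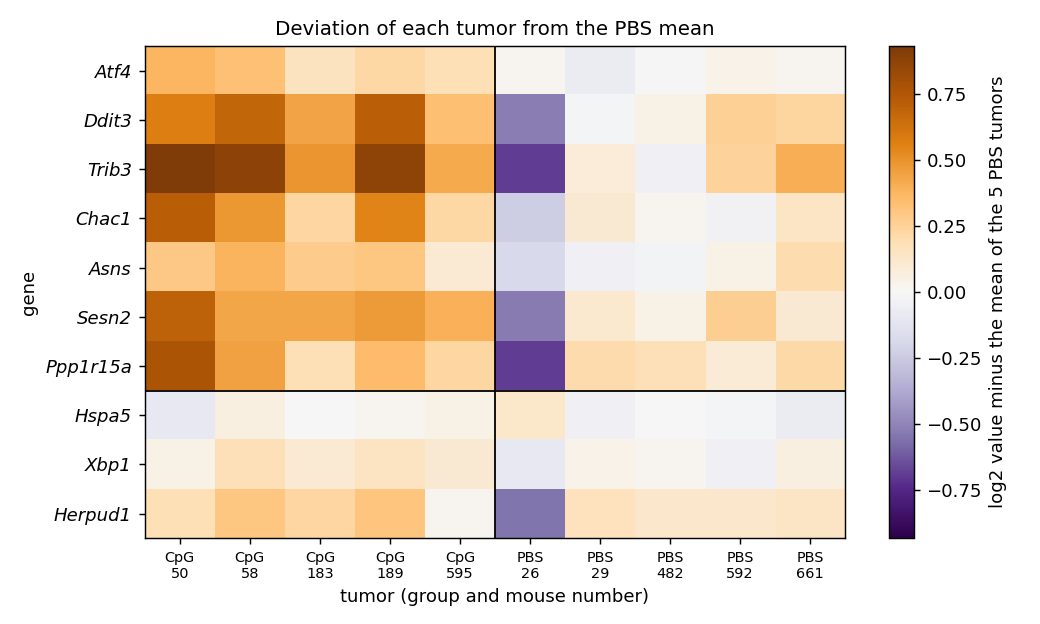
Log2 value of each gene minus its mean over the 5 PBS tumors, by tumor, CpG1826 to the left of the vertical line and PBS to the right, with the ATF4 arm above the horizontal line. The CpG1826 tumors of mice 50, 58 and 189 have the highest ATF4 arm averages (0.62, 0.52 and 0.50) and PBS mouse 26 the lowest (-0.40).

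Further genes of both responses were read from lists of known members. The counts of each list stand beside limma calls of 3.56% of all genes higher and 1.10% lower. At an unadjusted p under 0.05 these shares were 8.13% and 7.43%. Among 8 transcription factors and cofactors that act with ATF4, 5 rose and 0 fell, with 7 higher and 0 lower at an unadjusted p under 0.05, and the median log2 fold change was 0.38, where the median over all genes was -0.02. Atf3, a stress-induced repressor and activator of the same family, lay between 8.65 and 9.75 (log2) in CpG1826 tumors and between 7.57 and 8.61 in PBS tumors. Cebpb, a dimer partner of ATF4 and an inflammatory factor, rose by 0.93 ± 0.14 on the log2 scale (SE, limma adjusted p = 0.00174), and by 0.76 without PBS mouse 26 (limma adjusted p = 8.93e-05). Nupr1, a small stress-induced nuclear protein, lay between 9.72 and 10.08 in CpG1826 tumors and between 8.81 and 9.09 in PBS tumors and rose by 0.86 ± 0.08 (SE, limma adjusted p = 4.17e-05). Cebpd (0.44) and Cebpg (0.28) also rose, while Nfe2l2 (0.32), Jdp2 (0.30) and Atf5 (0.07) did not pass. Leaving out PBS mouse 26 or 29 brought the count that rose to 3. Without PBS mouse 26 the calls of Atf3 (0.91, limma adjusted p = 0.0582) and Cebpg (0.24, limma adjusted p = 0.0621) were lost.

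Of 26 other measured ATF4 targets, 5 rose and 0 fell (15 and 0 at an unadjusted p under 0.05), with a median log2 fold change of 0.23. Slc7a11, the cystine and glutamate exchanger, was 3.01-fold higher, 1.59 on the log2 scale (1.43 to 1.74, limma adjusted p = 3.64e-08), with log2 values of 9.40 to 9.63 in CpG1826 tumors and 7.84 to 8.06 in PBS tumors. This is the largest fold among all the genes of the pathway lists, while Chac1, which consumes glutathione, changed by 1.36-fold. Vegfa, a growth factor of blood vessels, rose by 0.50, Slc1a4, a neutral amino acid transporter, by 0.47, Mthfd2, an enzyme of mitochondrial folate metabolism, by 0.38, and Sqstm1, the autophagy receptor p62, by 0.35 (limma adjusted p = 0.0232 to 0.0406). Without PBS mouse 26 Vegfa rose by 0.40 (limma adjusted p = 0.0456), and the call of Slc1a4 was lost (0.37, limma adjusted p = 0.0661). The serine synthesis genes Phgdh (-0.14), Psat1 (0.07) and Psph (0.30) did not pass, nor did the transporter genes Slc7a5 (0.14), Slc3a2 (0.18) and Slc38a2 (-0.05). The count that rose was 1 without CpG1826 mouse 50, 2 without CpG1826 mouse 58 or 183 or PBS mouse 29, 3 without CpG1826 mouse 189 and 9 without PBS mouse 661.

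Transfer RNA synthetase genes, a group that ATF4 induces broadly, rose in 2 of 17 measured members, and 0 fell (8 higher and 0 lower at an unadjusted p under 0.05), with a median log2 fold change of 0.14. Cars, the cysteinyl enzyme, rose by 0.28 ± 0.06, and Tars, the threonyl enzyme, by 0.24 ± 0.06 (SE, limma adjusted p = 0.0223 and 0.0357). Leaving out CpG1826 mouse 50 or PBS mouse 29, 592 or 661 brought the count to 0, and leaving out CpG1826 mouse 58, 183 or 595 or PBS mouse 482 to 1. Among 10 measured eIF2 kinases and regulators, Ppp1r15b, the constitutive partner of the eIF2α phosphatase, rose by 0.33 ± 0.07 (SE, limma adjusted p = 0.0148), and 0 fell (2 higher and 3 lower at an unadjusted p under 0.05). The kinase genes Eif2ak2 (PKR, 0.28), Eif2ak3 (PERK, -0.19), Eif2ak4 (GCN2, 0.03) and Eif2ak1 (HRI, -0.0026) did not pass.

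The ER lists gave 2 calls in all. Of 25 ER chaperone and folding genes, 1 rose and 1 fell (2 higher and 4 lower at an unadjusted p under 0.05), with a median log2 fold change of -0.08. Over all genes, limma called 3.56% higher and 1.10% lower, and 8.13% and 7.43% at an unadjusted p under 0.05. The log2 fold change was below 0 in 20 of these 25 genes, and in 11556 of all 19938 genes. Ero1a, an oxidase of the ER that is also hypoxia-inducible, rose by 0.64 ± 0.12 (SE, limma adjusted p = 0.00532). Fkbp14, a prolyl isomerase of collagen folding, fell by 0.31 (limma adjusted p = 0.0248), a call lost without CpG1826 mouse 50 or 183 or PBS mouse 26 or 661, with 0 genes lower in each of these fits (-0.27 without PBS mouse 26, limma adjusted p = 0.0530). The unfolded protein response genes Hsp90b1 (-0.05), Calr (-0.11), Pdia4 (-0.22), Dnajb9 (0.26), Sdf2l1 (-0.15), Creld2 (-0.10), Manf (-0.03) and Hyou1 (-0.01) did not pass. In limma 0 of 8 sensors of the unfolded protein response were called (1 higher and 1 lower at an unadjusted p under 0.05), with Mbtps1, a protease that cleaves ATF6, at -0.08 and Creb3 at -0.0050. The IRE1 gene Ern1 was at 0.24 (limma adjusted p = 0.0900), and 1 sensor was called without CpG1826 mouse 189. Of 17 genes of ER-associated degradation limma called 0 (0 higher and 1 lower at an unadjusted p under 0.05, median 0.03), with Vcp, its extracting ATPase, at -0.11 and Nploc4 at 0.03. Of 20 genes of ER entry and secretion it called 0 (0 higher and 4 lower at an unadjusted p under 0.05, where 7.43% of all genes were lower), with a median of -0.08 and 15 of the 20 below 0. Stt3a, a subunit of the glycosylation enzyme, was at -0.11 and Ssr2 at -0.17, and without PBS mouse 26, the highest PBS tumor in both, they were at -0.05 and -0.11. Cytosolic heat shock genes, a stress response driven by another factor, gave 0 calls among 9 (3 higher and 0 lower at an unadjusted p under 0.05, median 0.16). Hspa8 was at -0.03 and Hsp90aa1 at 0.09. The inducible chaperone gene Hspa1a was at 0.82, with log2 values of 8.11 to 9.88 in CpG1826 tumors and 7.35 to 8.61 in PBS tumors, and Dnajb1 was at 0.41 and Hsph1 at 0.25, and none of them passed (limma adjusted p = 0.178 to 0.293).

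**Figure D4:**
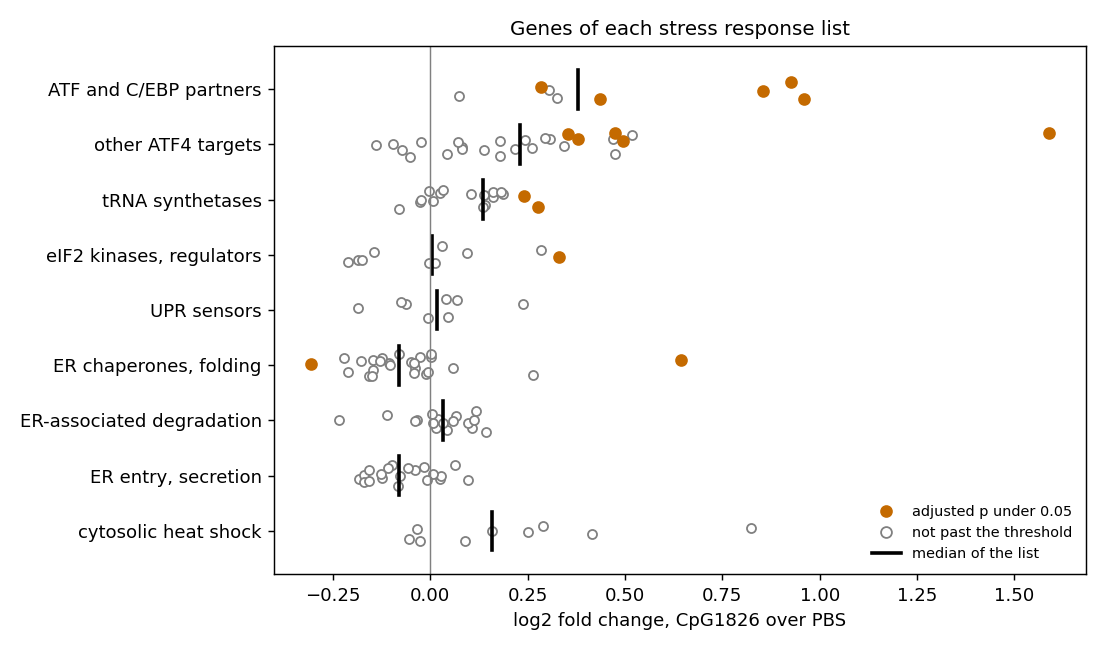
Log2 fold change, CpG1826 over PBS, of every measured gene of 9 lists, filled where the limma adjusted p was under 0.05, with the median of each list as a black bar; a gene on more than 1 list appears in each. The bars stand at 0.38 for ATF and C/EBP partners, 0.23 for other ATF4 targets and -0.08 for ER chaperones and folding genes.

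Markers of other cells differed between the same tumors. Over all genes, limma called 3.56% higher and 1.10% lower, and 8.13% and 7.43% were so at an unadjusted p under 0.05. Of 16 keratinocyte markers 11 rose, and their mean log2 level ran from 6.67 to 7.31 in CpG1826 tumors and from 5.31 to 5.84 in PBS tumors. Of 12 neutrophil markers 6 rose, with mean levels of 5.66 to 6.05 in CpG1826 tumors and 5.13 to 5.33 in PBS tumors. The 6 that rose were Csf3r, Cxcr2, Retnlg, S100a8, S100a9 and Mmp8. Ly6g (0.0003), Camp (-0.07), Ngp (0.05), Ltf (-0.03), Elane (-0.03) and Mpo (0.02) did not pass. Without PBS mouse 26 the call of Retnlg was lost (0.59, limma adjusted p = 0.0739). Plasma cells carry much Xbp1 and BiP. Of 11 plasma and B cell markers 2 were higher, Prdm1 (0.47) and Sdc1 (0.36, and 0.31 with its call lost without PBS mouse 26). The mean level of the 11 was 5.65 to 5.85 in CpG1826 tumors and 5.72 to 5.77 in PBS tumors. The plasma cell gene Jchain (3.73 in CpG1826 and 3.81 in PBS tumors) and the B cell gene Cd79a (3.84 in CpG1826 and 3.92 in PBS tumors) did not pass. Both had low values, under the array medians of 6.47 to 6.53. Macrophage markers rose in 2 and fell in 1 of 11, endothelial markers fell in 1 of 8, and limma called 0 of 9 T cell, 9 fibroblast, 8 skeletal muscle and 6 adipocyte markers (0 higher and 2, 2, 1 and 0 lower at an unadjusted p under 0.05). Without PBS mouse 26 the macrophage marker Fcgr1 (0.37, limma adjusted p = 0.0982) and the endothelial marker Tek (-0.26, limma adjusted p = 0.0507) lost their calls. The fibroblast marker Pdgfrb was then called lower (-0.50, limma adjusted p = 0.0374). Of 10 markers of colon carcinoma epithelium Cdh1 (0.63) and Epcam (0.32) rose and 0 fell. The median log2 fold change of the 10 was 0.03, with 6 above 0 and 4 below, among them Cldn7 (-0.32) and Krt18 (-0.11). The intestinal genes Cdx2 (5.60 in CpG1826 and 5.58 in PBS tumors), Vil1 (4.56 in CpG1826 and 4.68 in PBS tumors) and Krt20 (4.35 in CpG1826 and 4.32 in PBS tumors) had low values, which cannot be called absent because no detection calls were used. The arrays list no value of 0. The part of any of these cells in the changes of the stress genes was not tested.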

How the data were processed

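The authors deposited 1 log2 value per probe for 10 arrays, 5 CpG1826 and 5 PBS tumors, of biotin-labelled total RNA. R 2.7.1 and limma appear in the submitters' processing notes, without a stated role. The sources used here do not give the background correction, the probe summary, the normalization method or the genome build. The log base was inferred from the range of 2.03 to 14.70. Of 35512 probes, 21789 had exactly 1 symbol, 1621 several and 12102 none; the probe with the highest mean over the arrays stood for a gene, and 21698 probes were matched by gene number to RefSeq (GRCm38.p6), with 0 symbols changed. Groups were compared with limma 3.58.1 (lmFit, eBayes; R 4.3.3) (two-sided, Benjamini-Hochberg adjustment over 19938 genes, threshold 0.05), without a block. An array has no read depth, so the number of arrays limits the precision. Differences from Hspa5 used an exact permutation test. The alternatives were quantile normalization, median centring, filters on low values, array weights, a robust prior with a trend, averaging a gene's probes, a threshold of 0.01, the treat test with a minimum fold of 1.2, and leaving out each mouse. Tested on simulated data for this comparison (19938 genes, 5 arrays per group), the fit recovered 70 of 100 genes changed by 0.5 and 99 of 100 changed by 1 log2 unit, with 13 unchanged genes among 182 calls. The simulated noise was normal and independent between genes, with no tumor set apart as that of PBS mouse 26 was. The data gave 710 genes higher and 220 lower, so recovery in the data can differ. Besides the 10 members, the genes named were up to 3 called genes of each of 9 pathway lists with the largest change (the 2 of highest level in a list with 0 calls) and the 3 most like the member that changed most; other names were chosen after their values were seen. Members, lists, marker lists and motifs were chosen with earlier results of these data known. Listed genes that are not counted as measured were not analysed here.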

Additional observations from a re-analysis of the deposited data

Results flagged for a closer look

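Among the 31 genes named by rule, each looked at in both groups of 5 tumors, 10 groups held a tumor set far from the other 4, where chance gives about 1 in 20 groups. The same tumors enter for every gene, so these groups are not independent and the 10 are not separate events. PBS mouse 26 accounted for 7 of them. It was the lowest PBS tumor in Sesn2 (7.19, the next at 7.76), Ppp1r15a (6.55, the next at 7.33), Herpud1 (9.03, the next at 9.69), Cebpb (7.70, the next at 8.51) and Vegfa (9.21, the next at 9.64). It was the highest PBS tumor in Stt3a (12.07, the next at 11.81) and Ssr2 (11.66, the next at 11.38), 2 genes of ER entry. CpG1826 mouse 50 was the highest of its group in Sesn2 (8.41, the next at 8.19) and in Atf3 (9.75, the next at 8.93), and CpG1826 mouse 58 the lowest in Cebpb (9.11, the next at 9.32). All values are on the log2 scale.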

How the results depend on the processing

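In the main fit 5 members rose, each of them 1 of the 7 genes of the ATF4 arm. The number that rose was 5 or 6 with median centring, filters on low values, array weights, a robust prior with a trend, or averaged probes. It was 3 after a further quantile normalization, where Atf4 (limma adjusted p = 0.0614) and Sesn2 (limma adjusted p = 0.0513) missed the threshold, 0 at an adjusted p under 0.01, 0 with the treat test at a minimum fold of 1.2, and 0 to 4 when 1 mouse was left out; the cause was not tested for the normalization, and fewer tumors or a stricter criterion apply in the others. Asns passed once genes under the median level were dropped (limma adjusted p = 0.0356) and with the trended prior (limma adjusted p = 0.0284). In each alternative run 0 members were called lower and 0 of the ER genes called. Hspa5, never called, changed sign to -0.0041 after quantile normalization and ran from -0.012 to 0.037 when 1 mouse was left out. At an adjusted p under 0.01 and with the treat test, ATF and C/EBP partners had 2 rises, other ATF4 targets 1, and tRNA synthetases and eIF2 regulators 0. Ero1a lost its call with treat (0 ER chaperone genes higher), and Fkbp14 with both (0 lower). Other ATF4 targets had 9 rises once genes under the median level were dropped and 9 with the trended prior, the eIF2 regulators 0 with the mean of a gene's probes, and the sensors 1 without genes under the median level. Leaving out 1 mouse gave 3 to 5 rises among partners, 1 to 9 among other ATF4 targets, 0 to 2 among tRNA synthetases, 0 to 1 among sensors, and 0 to 1 falls among ER chaperones. In these fits the difference from Hspa5 ran from 0.19 to 0.28 for Atf4, 0.38 to 0.62 for Ddit3, 0.51 to 0.83 for Trib3, 0.34 to 0.50 for Chac1, 0.19 to 0.33 for Asns, 0.32 to 0.55 for Sesn2, 0.19 to 0.46 for Ppp1r15a and 0.056 to 0.14 for Xbp1, always positive. No paired analysis was possible because no mouse number occurs in both groups. Over all genes, a further quantile normalization raised the number called lower to 364, against 220.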
